A study of Homo sapiens with 15 samples.

Results

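The genes described here are 10 textbook targets of the tumour suppressor p53, namely CDKN1A, BTG2, PLK3, GADD45A, GADD45B, MDM2, SESN1, SESN2, TP53I3 and ZMAT3. They were chosen by name, for their known link to p53, with earlier results of these data known. All 10 were found among the 60649 genes of the count table, and all 10 passed the filter on low counts, which left 23711 genes. The cells were K562, an established line of chronic myeloid leukaemia. The question was how transcripts respond at each concentration of martinostat, an inhibitor of histone deacetylases (HDACs). Cultures had been left untreated or kept for 24 h with martinostat at 0.15, 0.25 or 0.5 µM or at the top dose of 1 µM, with 3 libraries per group and 15 in all. All groups were the same cell line without any other agent or allele, and the labels call the controls untreated and name no solvent.

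In most cells, stress or DNA damage stabilises p53, which then binds response elements near its target genes and switches them on. Some targets stop the cell cycle (CDKN1A, BTG2), some act in DNA repair and stress signalling (GADD45A, GADD45B, PLK3), and others in metabolism and redox balance (SESN1, SESN2, TP53I3). MDM2 is both a target and an inhibitor of p53, since its protein marks p53 for degradation, and ZMAT3 binds RNA. K562 cells are known to make no working p53, which counts per gene cannot show and the labels do not state. Many of these targets can also be switched on by other factors.

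Library totals ranged from 23755510 to 32805574 counts. The third replicates at 0.25 and 0.5 µM stood apart on the third principal component (48.7 and 52.1, against 9.52 or lower in the other 13 libraries), so results that rest on them are also given without them. The 8 erythroid markers that define K562 cells were all detected, with a summed level of 3592 to 3922 CPM (counts relative to the scaled library size) in untreated libraries and 845 to 976 CPM at 1 µM. CDKN2B, which is deleted in K562 cells, had 0 counts in all 15 libraries, and the summed level of CDKN2A, CDKN2B and MTAP was at most 0.305 CPM in any library. The 5 lymphoid markers summed to 5.79 to 9.28 CPM in untreated libraries, 21.1 to 29.97 CPM at 0.15 µM, 15.0 to 18.8 CPM at 0.25 µM, 9.03 to 10.7 CPM at 0.5 µM and 10.0 to 13.2 CPM at 1 µM, and 3 of the 4 tested were called higher at 0.15 µM. At 0.5 µM 2 of these 4 were higher and 1 lower (log2 fold change -1.16), and at 1 µM 1 was higher and 1 lower (-1.03). The 5 monocyte and granulocyte markers summed to 7.22 to 9.27 CPM in untreated libraries and to between 24.3 and 40.7 CPM in treated ones. At 1 µM this was mostly CSF1R (25.9 CPM on average). Of the 4 tested, 3 were called higher at every dose, and the other was lower at 0.5 and 1 µM (-1.77 and -2.15). Of all tested genes 31.9% to 39.4% were higher and 19.4% to 27.6% lower, depending on the dose. Of the defining markers, MPO had 0 counts in untreated cells and 26 to 73 per treated group, while MS4A1 and ELANE had at most 7 and 5 counts in any group. The part of these marker changes in the results was not tested.

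Over the 5 groups, 9 of the 10 p53 target genes differed by the edgeR quasi-likelihood test with Benjamini-Hochberg adjustment over all tested genes (adjusted p under 0.05), as did 73.6% of all genes. The exception was GADD45A (adjusted p = 0.436). At 0.15 µM 7 targets were higher and 1 was lower than in untreated cells, where 51.2% of all tested genes were called (31.9% higher and 19.4% lower). At each of the 3 higher doses 8 targets were higher and 1 was lower. The background was 62.3% of all genes at 0.25 µM (37.4% higher, 24.8% lower), 66.9% at 0.5 µM (39.4% and 27.6%) and 66.2% at 1 µM (38.8% and 27.5%). A set of 7 targets was higher at all 4 doses, as were 24.6% of all tested genes, and MDM2 was lower at all 4, as were 15.1%. SESN1 was higher from 0.25 µM on, and GADD45A was called at no dose. At 0.15 µM this depended on the scaling, since SESN1 and GADD45A were both called higher by library totals alone (0.48 and 0.63 on the log2 scale) and by TMM from genes of at least 10 CPM (0.38 and 0.53). The doses share the same 3 untreated libraries, so the 4 comparisons are not independent of each other. RNA came from whole cultures, so a change in every cell and a change in the share of cells that make a transcript cannot be told apart.

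The median log2 fold change of the 10 targets was 0.69, 0.99, 1.21 and 1.19 in order of rising dose, against 0.28, 0.32, 0.34 and 0.32 over all tested genes. The latter medians depended on the scaling of the libraries. By library totals alone they were 0.64, 0.85, 0.72 and 0.67. Relative to the median of all genes at the same dose, the targets kept their place under 4 scalings. At 1 µM CDKN1A lay 6.19 to 6.20 above that median on the log2 scale, GADD45B 4.59 to 4.60 above it, SESN1 0.19 to 0.20 above it, and MDM2 -1.27 from it.

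**Figure D1:**
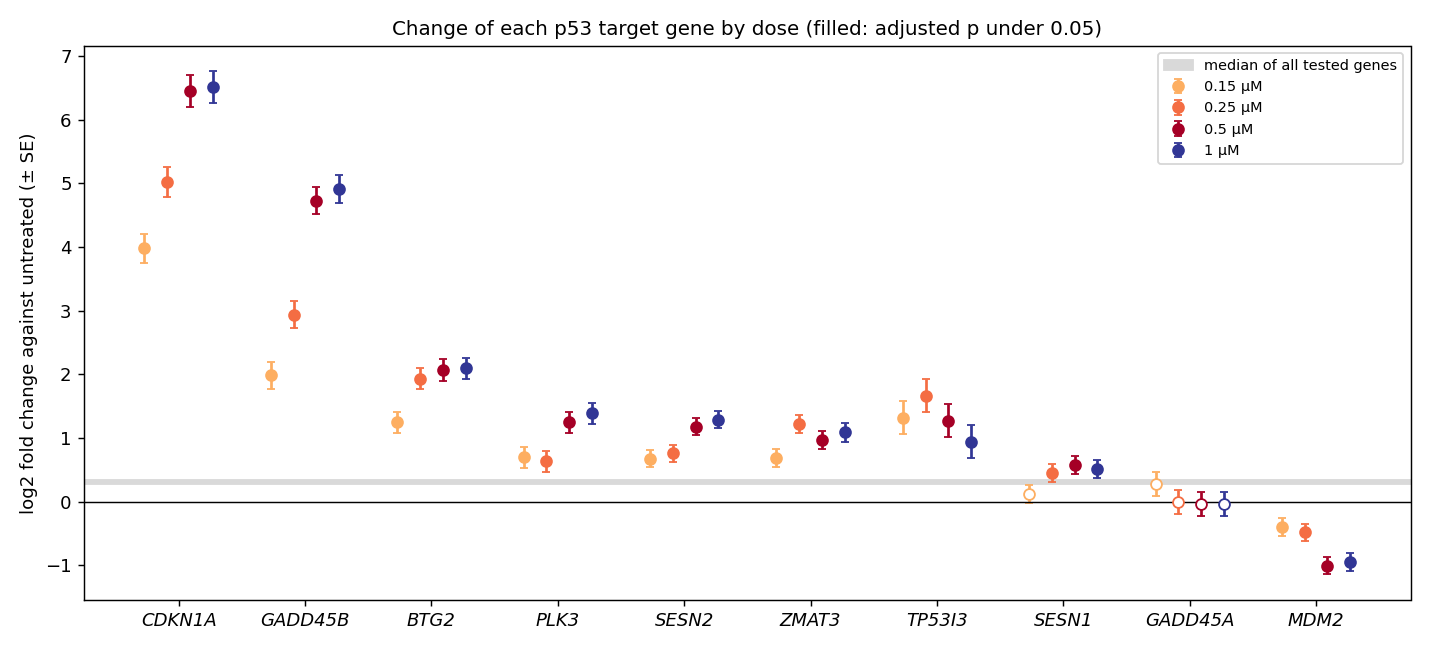
Log2 fold change against untreated cells (vertical axis, ± SE, TMM scaling) of the 10 p53 target genes at the 4 doses of martinostat in µM (3 libraries per group). Filled points passed an adjusted p of 0.05, and the grey band marks the medians of all tested genes (0.28 to 0.34). CDKN1A and GADD45B lie far above the other targets, GADD45A has unfilled points at all doses, and MDM2 lies below 0 (at 0.25 µM it was 0.04 by library totals alone).

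The p53 response element is a pair of 10-base copies. Only the form with both copies in direct succession was sought here. Each copy had to have a core that starts with C, ends with G and has A or T at both bases between, as in CATG. Pairs with a spacer or an altered core were passed over. A search of both strands within 2500 bases of each gene start, with at most 2 mismatches outside the cores, found such a 20-base run in 5 of the 10 targets and in 447 of 19884 protein-coding genes (2.25%). These are shown because response elements are where p53 binds, and they allow targets that hold this form to be compared with each other. Sequences are from hg38, 5′ to 3′ on the strand of the gene, with the core of each copy in capitals.
CDKN1A, chr6:36676449-36676468: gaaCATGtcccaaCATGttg
BTG2, chr1:203303642-203303661: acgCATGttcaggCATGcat
GADD45A, chr1:67686775-67686794: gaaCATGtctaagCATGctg
GADD45B, chr19:2478021-2478040: agaCTTGgttgaaCTTGgtt
ZMAT3, chr3:179070188-179070207: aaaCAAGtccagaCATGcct
The CDKN1A run spans the outermost annotated start of the gene, with 11 bases before it and 9 in an exon. It lies upstream of the RefSeq start used below, which follows chr6:36678713, and has 2 mismatches. The BTG2 run starts 1849 bases upstream of the gene and also has 2. Those of GADD45A (1 mismatch) and ZMAT3 (0 mismatches) lie in introns, and that of GADD45B (2 mismatches) in an exon. The element with 0 mismatches was in ZMAT3, which rose at all 4 doses, and that with 1 mismatch in GADD45A, which passed the test at none. No run of this kind was found in the other 5 targets, of which 4 were called higher at 1 µM. Other forms of the element were not sought, so these 5 targets may hold one. A match is a description of letters, and binding of any factor was not measured.

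CDKN1A (ENSG00000124762.14, hg38 chr6:36676460-36687337, plus strand) encodes p21, which inhibits cyclin-dependent kinases and holds cells before S phase. The 250 bases before its RefSeq start (GRCh38.p14, chr6:36678464-36678713) are shown because this promoter belongs to the target with the largest change. The letters GGGCGG, the GC box bound by factors such as SP1 and SP3, are in capitals.
CDKN1A: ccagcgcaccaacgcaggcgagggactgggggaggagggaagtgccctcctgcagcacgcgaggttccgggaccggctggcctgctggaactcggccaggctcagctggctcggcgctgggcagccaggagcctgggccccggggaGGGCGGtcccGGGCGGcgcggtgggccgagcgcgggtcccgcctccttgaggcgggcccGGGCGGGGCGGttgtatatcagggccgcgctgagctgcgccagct
The window holds 4 GC boxes, the last 2 of which overlap by their end base. At least 1 GC box (either strand) was present in the promoters of 46.2% of 27305 genes, and 4 or more in 9.24%.

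Untreated libraries had CDKN1A levels of 2.86, 3.82 and 5.01 CPM. At 0.15 µM they were 64.7, 57.2 and 63.0 CPM, and at 0.25 µM 144, 145 and 92.3 CPM. Every library at a higher dose lay above every library at a lower one up to 0.5 µM, and the lowest value at 0.25 µM was the third replicate. At 0.5 µM the values were 369, 371 and 284 CPM and at 1 µM 340, 413 and 314 CPM, so these groups overlapped. Against untreated cells the log2 fold change was 3.98 (SE 0.23), 5.02 (SE 0.24), 6.45 (SE 0.25) and 6.51 (SE 0.25), with adjusted p of 8.35e-11 to 1.88e-13 in the edgeR test. At 1 µM it ranked 1354 of 23711 genes from the highest log2 fold change. Of CDKN1A's exon bases, 4.87% lie under DINOL, a gene on the opposite strand, and how the authors set the strand in counting was not stated.

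BTG2 (ENSG00000159388.6, chr1:203305491-203309602, plus strand) slows proliferation and recruits the deadenylase complex that shortens mRNA tails. It was at 45.8, 46.4 and 55.2 CPM in untreated libraries, 114, 109 and 127 CPM at 0.15 µM and 205, 172 and 186 CPM at 0.25 µM. Above this dose it levelled off, with 168, 190 and 260 CPM at 0.5 µM and 196, 236 and 195 CPM at 1 µM. All treated libraries were above all untreated ones, and the highest of all was the third replicate at 0.5 µM. BTG2 rose by 1.25 (SE 0.16) on the log2 scale at 0.15 µM and by 2.09 (SE 0.17) at 1 µM (edgeR adjusted p = 4.01e-06 and 2.35e-09).

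PLK3 (ENSG00000173846.13, chr1:44800377-44805990, plus strand) is a kinase of the polo family that takes part in stress responses. Untreated libraries had 7.97, 9.62 and 8.18 CPM. The 0.15 µM libraries (15.6, 13.1 and 13.0 CPM) and the 0.25 µM libraries (12.3, 13.3 and 14.4 CPM) lay above these and overlapped each other. A further level followed at 0.5 µM (18.3, 21.9 and 21 CPM) and 1 µM (23.4, 25.5 and 18.4 CPM), again with overlap. PLK3 rose by 0.69 (SE 0.17) on the log2 scale at 0.15 µM and by 1.38 (SE 0.17) at 1 µM (edgeR adjusted p = 0.00174 and 6.08e-07).

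The GADD45 proteins bind partners in DNA repair, cell cycle control and MAP kinase signalling, and the family is named for growth arrest and DNA damage. GADD45B (ENSG00000099860.9, chr19:2476122-2478259, plus strand) showed the second largest change among the targets, while GADD45A (ENSG00000116717.13, chr1:67685201-67688334, plus strand) passed the test at no dose. The 250 bases before the RefSeq start of GADD45B (GRCh38.p14, chr19:2475877-2476126) are shown for comparison with the GC-box promoter of CDKN1A. Capitals mark an E-box (CACGTG), 2 CCAAT boxes (CCAAT) and a TATA box (TATAAA).
GADD45B: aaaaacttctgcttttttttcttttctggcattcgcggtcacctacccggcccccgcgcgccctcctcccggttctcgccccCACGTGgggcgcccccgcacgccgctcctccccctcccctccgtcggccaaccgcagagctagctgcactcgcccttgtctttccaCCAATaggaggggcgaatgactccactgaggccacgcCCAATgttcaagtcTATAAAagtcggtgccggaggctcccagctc
Neither strand of this window holds a GC box. Of the 27305 genes, 37% had a CCAAT box, 13% a TATA box and 7.73% this E-box. Among the targets with a promoter entry, GADD45B was the only one with either a TATA box or the E-box. GADD45A had no entry.

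GADD45B levels in untreated libraries were 1.39, 0.927 and 0.665 CPM, from 34, 24 and 17 counts. They were 3.90, 3.67 and 4.20 CPM at 0.15 µM and 7.66, 8.09 and 7.11 CPM at 0.25 µM. Each group lay above all libraries of the dose before it, also at 0.5 µM with 25.2, 26.8 and 27.1 CPM and at 1 µM with 31.1, 31.3 and 27.6 CPM. GADD45B rose by 1.98 (SE 0.21), 2.94 (SE 0.21), 4.73 (SE 0.22) and 4.91 (SE 0.22) on the log2 scale in order of rising dose (edgeR adjusted p from 4.01e-07 to 1.04e-12). From 0.5 to 1 µM the log2 difference of 0.19 (SE 0.17) was not called (adjusted p = 1).

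GADD45A was at 93.3, 100 and 87.9 CPM in untreated libraries and at 111, 110 and 119 CPM at 0.15 µM. All libraries at 0.15 µM were above the untreated ones, but the log2 fold change of 0.27 (SE 0.19) did not pass the edgeR test (adjusted p = 0.229). It passed in 4 of 26 alternative analyses, among them a fit of only the libraries compared (0.30). At 0.25 µM it was 77.9, 82.4 and 119 CPM, and at 0.5 µM 69.6, 81.4 and 123 CPM. The third replicates of both groups were the high values, above all untreated libraries, and the other 4 were below all of them. At 1 µM the libraries (91.2, 96.4 and 86.8 CPM) overlapped the untreated ones, with a log2 fold change of -0.04 (SE 0.19, adjusted p = 0.878). Without the third replicates of 0.25 and 0.5 µM GADD45A passed at 0.15 µM (log2 fold change 0.28, adjusted p = 0.0331), and its value fell by 0.48 on the log2 scale from 0.15 to 0.25 µM (adjusted p = 0.00911), both in the same edgeR test. In that fit it was -0.20 at 0.25 µM and -0.28 at 0.5 µM against untreated cells, neither of which passed (adjusted p = 0.158 and 0.0525). Relative to the median of all genes, GADD45A lay at -0.01 at 0.15 µM and at -0.35 at 1 µM.

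MDM2 (ENSG00000135679.26, chr12:68808177-68845544, plus strand), the ubiquitin ligase that keeps p53 low, was the target that went down. Its transcripts start at a pair of promoters, and the internal one, in the first intron, is the one known to answer to p53. The 250 bases before a RefSeq start of the internal promoter (GRCh38.p14, chr12:68808767-68809016) are shown for that reason, with a GC box and, on the opposite strand, a CCAAT box (read as ATTGG) in capitals.
MDM2: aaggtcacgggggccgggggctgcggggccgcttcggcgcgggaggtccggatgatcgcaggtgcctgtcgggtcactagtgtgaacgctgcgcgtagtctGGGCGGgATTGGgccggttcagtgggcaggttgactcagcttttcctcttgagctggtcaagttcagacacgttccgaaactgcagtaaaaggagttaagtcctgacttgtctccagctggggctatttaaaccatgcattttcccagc
The search for p53 response elements found none here under its limits of 2 mismatches and intact cores. The window does hold near forms, such as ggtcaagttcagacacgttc, whose second core reads CACG. The result therefore does not show that this promoter lacks an element. Counts per gene do not tell the starts apart.

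Untreated libraries had MDM2 levels of 90.5, 79.5 and 81.9 CPM. The values were 68.7, 63.7 and 58.5 CPM at 0.15 µM and 57.9, 64.7 and 57.3 CPM at 0.25 µM. At the high doses they were 35.2, 42.8 and 47.0 CPM (0.5 µM) and 42.3, 40.0 and 48.2 CPM (1 µM). All treated libraries were below all untreated ones, and those at 0.5 and 1 µM were below those at the 2 lower doses. Its log2 fold change came to -0.40 (SE 0.14) at 0.15 µM and -0.49 (SE 0.14) at 0.25 µM (edgeR adjusted p = 0.0191 and 0.0045). The 0.15 µM call was lost without untreated replicate 1 (-0.34) and without replicate 2 or 3 at 0.15 µM (-0.40 and -0.35), and the sign at 0.25 µM depended on the scaling, since library totals alone gave 0.04. At 0.5 and 1 µM the log2 fold change was -1.01 (SE 0.14) and -0.95 (SE 0.14), with adjusted p of 2.92e-06 and 6.15e-06, and it stayed below 0 and called in all 26 alternative analyses. Relative to the median of all genes MDM2 lay at -0.68, -0.80, -1.35 and -1.27 in order of rising dose. MDM2 shares 11.1% of its exon bases with genes on the opposite strand and 5.29% with a gene on its own strand, so its counts are less certain than those of the other targets.

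Sestrins limit mTORC1 signalling under stress and support antioxidant defence, and SESN2 also senses leucine. SESN2 (ENSG00000130766.5, chr1:28259518-28282491, plus strand) was at 76.9, 85.6 and 93.6 CPM in untreated libraries. It was at 135, 131 and 142 CPM at 0.15 µM and 158, 150 and 125 CPM at 0.25 µM. These 2 doses overlapped, and both lay above the untreated libraries. At 0.5 µM (197, 199 and 182 CPM) and 1 µM (216, 211 and 197 CPM) the libraries were higher again. SESN2 rose by 0.67 (SE 0.13) on the log2 scale at 0.15 µM and by 1.28 (SE 0.13) at 1 µM (edgeR adjusted p = 0.000282 and 7.45e-08).

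SESN1 (ENSG00000080546.13, chr6:108984309-109094846, minus strand) moved least among the targets that were called. It was at 16.6, 20.7 and 19 CPM in untreated libraries and 20.8, 23.2 and 17.2 CPM at 0.15 µM, and these groups overlapped (log2 fold change 0.12, SE 0.14). The 0.25 µM (23.5, 27.9 and 25.5 CPM), 0.5 µM (27.4, 28.7 and 27.8 CPM) and 1 µM libraries (26.2, 26.9 and 27.2 CPM) were all above the untreated ones. The rises came to 0.45, 0.57 and 0.51 (SE 0.14 each), with edgeR adjusted p of 0.0106, 0.00162 and 0.00393. Relative to the median of all genes they came to 0.13, 0.23 and 0.19. The 0.25 µM value did not pass when untreated replicate 1 (log2 fold change 0.36) or replicate 2 at 0.25 µM (0.38) was left out.

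TP53I3 (ENSG00000115129.14, chr2:24077433-24085861, minus strand), a quinone oxidoreductase also called PIG3, had its highest mean at 0.25 µM. Untreated libraries had 5.85, 3.44 and 3.84 CPM, from 89 to 143 counts. The values were 9.17, 11.0 and 12.5 CPM at 0.15 µM, 16.7, 14.3 and 10.6 CPM at 0.25 µM, 14.1, 9.29 and 8.24 CPM at 0.5 µM and 7.06, 9.95 and 8.16 CPM at 1 µM. All treated libraries were above all untreated ones, and neighbouring doses overlapped. TP53I3 rose by 1.32, 1.66, 1.27 and 0.94 on the log2 scale in order of rising dose (SE 0.26 each), with edgeR adjusted p of 0.000294, 1.75e-05, 0.00026 and 0.00337. The lower value at 1 µM than at 0.25 µM was not tested directly, and neither the step from 0.25 to 0.5 µM nor that from 0.5 to 1 µM was called, although the former was with the replicates of these 2 doses paired (-0.42, SE 0.15, edgeR adjusted p = 0.0305). The third replicate was the lowest library at both 0.25 and 0.5 µM, and without these libraries the log2 fold changes were 1.85 and 1.47.

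ZMAT3 (ENSG00000172667.11, chr3:178960121-179072215, minus strand) encodes a zinc-finger protein that binds RNA and affects the stability and splicing of mRNA. Untreated libraries had 20.0, 16.6 and 19.3 CPM, those at 0.15 µM 35.7, 27.0 and 27.0 CPM, and those at 0.25 µM 43.6, 43.3 and 43.1 CPM. The 0.25 µM group was the tightest of any target, with a coefficient of variation of 0.536%. This is below the counting error of its libraries, which held 1285, 1209 and 1721 counts. At 0.5 µM (32.9, 36.4 and 40.0 CPM) and 1 µM (38.3, 36.5 and 43.7 CPM) ZMAT3 stayed above all untreated libraries. It rose by 0.68, 1.22, 0.97 and 1.09 on the log2 scale in order of rising dose (SE 0.15 each), with edgeR adjusted p from 0.000671 to 8.67e-07.

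**Figure D2:**
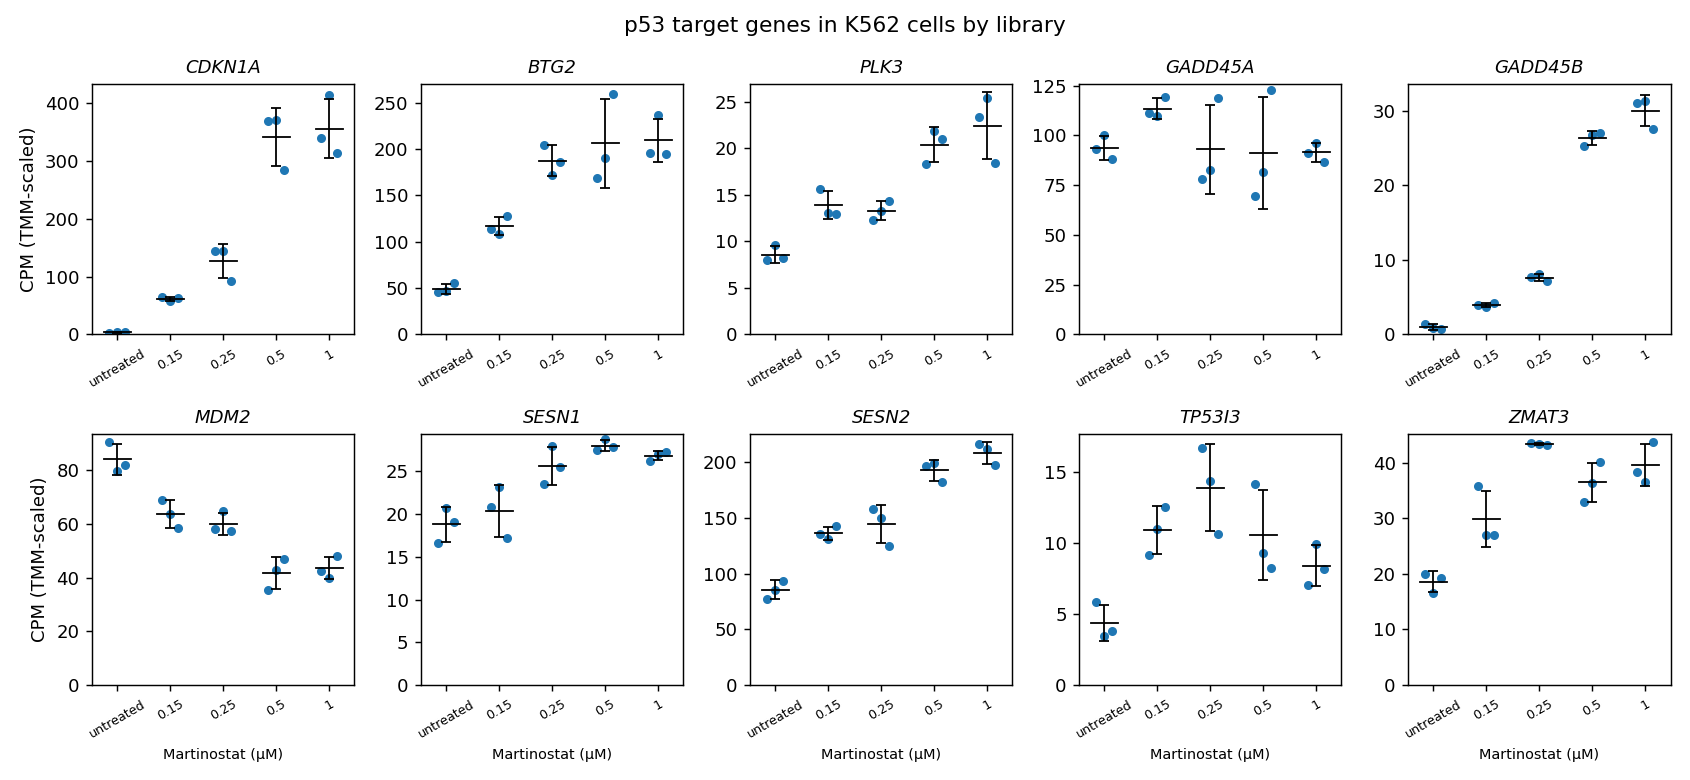
Levels of the 10 p53 target genes in CPM (vertical axis, linear and starting at 0, a scale per gene) in untreated cells and at the 4 doses of martinostat in µM, with libraries as points and the mean ± SD (n = 3) as bars. CDKN1A and GADD45B climb until 0.5 µM, GADD45A shows 1 high library (the third) at 0.25 and at 0.5 µM, and all MDM2 values from treated cells lie below those of untreated cells.

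Consecutive doses were compared to ask at which concentration each target moved. From 0.15 to 0.25 µM CDKN1A, GADD45B, BTG2 and ZMAT3 rose, by 1.04, 0.96, 0.69 and 0.53 on the log2 scale (edgeR adjusted p = 0.00204, 0.00242, 0.00903 and 0.0209). That made 4 of 10 targets higher, where 12.3% of all genes were called (4.96% higher and 7.32% lower). From 0.25 to 0.5 µM CDKN1A (1.43), GADD45B (1.79), PLK3 (0.62) and SESN2 (0.42) rose and MDM2 fell by 0.52, with adjusted p of 1.99e-05, 4.95e-07, 0.00702, 0.02 and 0.00632 in the same test. In this step 30.4% of all genes were called (14.4% higher and 16% lower). From 0.5 to 1 µM edgeR called 0 of 10 targets and 0% of all genes, 0 targets had an unadjusted p under 0.05, and DESeq2 also called 0. Between 0.15 and 1 µM 7 targets rose and MDM2 fell by 0.55, where 44.5% of all genes were called (21.5% higher and 23.1% lower). SESN1 and ZMAT3 (0.40 each) lost this call in 9 and 8 of 26 alternative analyses, among them without replicate 3 at 0.15 µM (0.33 and 0.38) and without replicate 1 (0.41 and 0.42) or 3 (0.38 and 0.32) at 1 µM. The SESN1 call was also lost without replicate 1 at 0.15 µM (0.41) and without replicate 2 at 1 µM (0.39), and the ZMAT3 call without replicate 2 at 0.15 µM (0.33). Of the 10 targets, only CDKN1A and GADD45B rose in both of the lower steps. Whether BTG2 and ZMAT3 differ in their dose dependence from PLK3 and SESN2 was not tested. The ZMAT3 step was lost without replicate 2 or 3 at 0.15 µM (log2 0.46 and 0.51) and without replicate 2 at 0.25 µM (0.53). The SESN2 step was lost without replicate 3 at 0.25 µM (0.35). It was also lost without replicate 1 or 2 at 0.5 µM (0.40 and 0.39), and the MDM2 step without replicate 1 at 0.5 µM (-0.42). Library totals alone lost the PLK3 and SESN2 steps, and limma on FPKM lost the PLK3 step as well. Equal replicate numbers at 0.25 and 0.5 µM deviated together, and with these 6 libraries fitted as pairs 4 targets rose in that step and 2 fell, MDM2 and TP53I3. This paired fit called 9935 of 21562 tested genes.

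Levels were compared between targets as CPM per kb of merged exon. In untreated cells GADD45A was the highest with 48.7 ± 3.16 (SD, n = 3), followed by SESN2 (24.7 ± 2.42), BTG2 (17.8 ± 1.91) and MDM2 (10.1 ± 0.697), and none of these overlapped its neighbour. SESN1 and PLK3 (2.58 each), TP53I3 (1.89), ZMAT3 (1.65) and CDKN1A (1.30) followed, each overlapping the next. GADD45B was the lowest with 0.465 ± 0.172 and did not overlap CDKN1A. At 1 µM CDKN1A was the highest of the targets with 119 ± 17.1 CPM per kb. BTG2 (75.9), SESN2 (60.1), GADD45A (47.5) and GADD45B (14.0) came next, without overlap between neighbours. PLK3 (6.74) overlapped MDM2 (5.24), and SESN1 (3.68), TP53I3 (3.63) and ZMAT3 (3.50) overlapped each other. CDKN1A thus moved from the ninth to the first place of 10, and GADD45A from the first to the fourth.

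Most of these targets have relatives, and 13 relatives were listed for comparison. Apart from PLK2, they are not on the list of further p53 targets used below. With 0.15 µM 6 of the 13 were higher and 5 lower, with 0.25 µM 7 and 5, and with 0.5 µM as well as 1 µM 8 and 4, with a median log2 fold change of 0.05, 0.42, 1.59 and 1.65. The shares over all tested genes were 31.9% (higher) and 19.4% (lower) with 0.15 µM and 38.8% and 27.5% with 1 µM. SESN3 had 1.38 ± 0.303 CPM without treatment and 52.8 ± 0.596 CPM with 1 µM (SD, n = 3), a log2 fold change of 5.25 (SE 0.23). GADD45G went from 0.384 ± 0.11 to 4.13 ± 0.338 CPM, a log2 fold change of 3.41 (SE 0.43). Both rose at all 4 doses, so in the GADD45 family GADD45A was the member that did not pass. BTG1 was highest at 0.25 µM, with 364 ± 25.2 CPM against 58.9 ± 6.23 CPM without treatment and 196 ± 23.0 CPM with 1 µM. BTG4 had 0 counts in untreated libraries and was at least 26.8-fold higher at 1 µM, against a floor of 3 counts over the untreated group.

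Within families the directions were mixed. BTG3 fell at all 4 doses, by 2.24 on the log2 scale at 1 µM. TOB1 rose at 0.5 and 1 µM (1.65 at 1 µM), while TOB2 fell at 0.15 and 0.25 µM, by 0.75 and 0.77. PLK1, which drives mitosis, fell from 346 ± 33.7 to 76.6 ± 9.92 CPM at 1 µM, and PLK4, which duplicates centrioles, from 67.6 ± 6.25 to 21.1 ± 2.23 CPM. PLK5 rose from 1.35 ± 0.538 to 22.9 ± 3.87 CPM. PLK2, itself a p53 target, rose from 0.25 µM on, with log2 fold changes of 0.42, 0.46 and 0.40. The medians of all tested genes at these doses were 0.32, 0.34 and 0.32. Among the kinase inhibitors next to p21, CDKN1C (p57) rose at all doses, by 5.49 at 1 µM. CDKN1B (p27) fell by 1.21 at 1 µM and by 0.31 and 0.37 at 0.15 and 0.25 µM, but the calls at these 2 doses were lost in 17 and 7 of 26 alternative analyses, and library totals alone turned their sign. By library totals alone 3 of the 13 relatives were lower at 0.15 and at 0.25 µM, in place of 5 at each dose. All adjusted p of the changes named here were under 0.05 in the edgeR test.

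**Figure D3:**
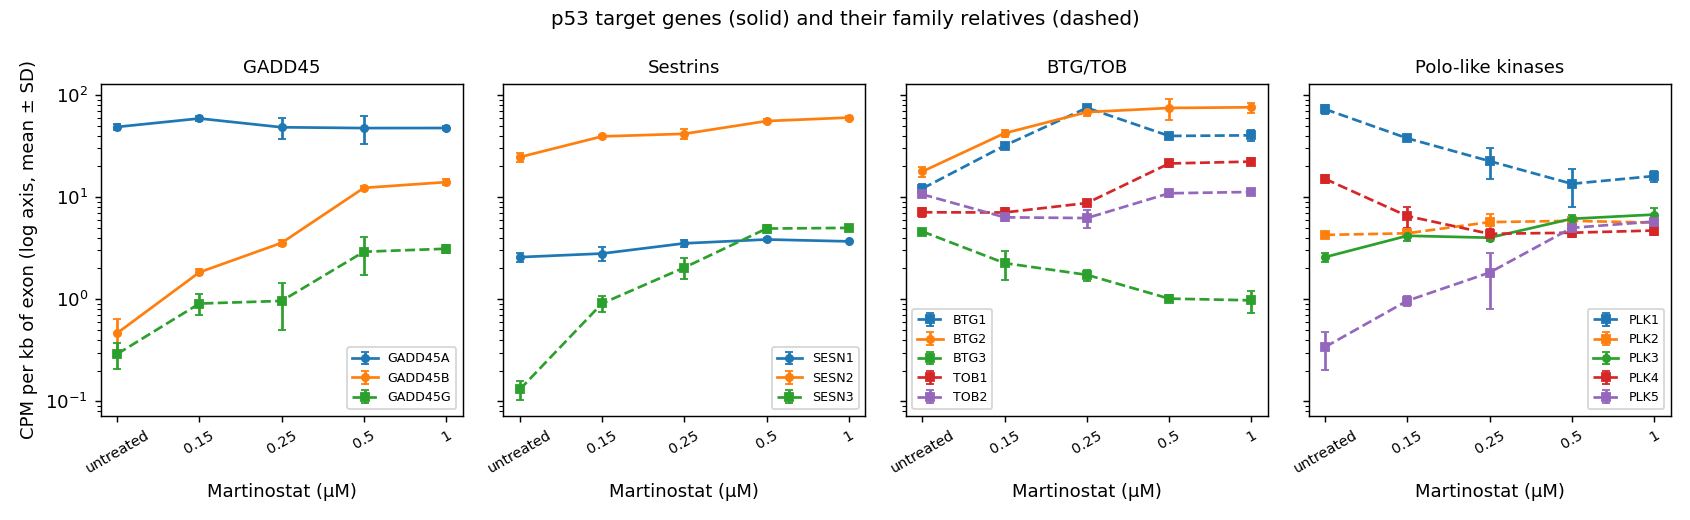
Mean level in CPM per kb of exon (vertical axis, log scale, ± SD, n = 3) of p53 target genes (solid lines) and their relatives (dashed lines) by martinostat concentration in µM, leaving out BTG4, which had an untreated level of 0. GADD45B, SESN2, BTG2 and PLK3 rise together with GADD45G, SESN3, BTG1 and PLK5, while PLK1, PLK4 and BTG3 go down at all doses.

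The p53 pathway itself was followed through 12 genes that make up or control it. At 0.15 and 0.25 µM 7 of the 12 were lower than in untreated cells, and at 0.5 and 1 µM 5 of the 12. Those called higher numbered 2, 3 and 2 with 0.25, 0.5 and 1 µM. Of all tested genes 19.4%, 24.8%, 27.6% and 27.5% were lower in order of rising dose, and 31.9%, 37.4%, 39.4% and 38.8% higher. The median log2 fold change over the list was -0.51, -0.65, -0.42 and -0.53, against 0.28, 0.32, 0.34 and 0.32 over all tested genes. By library totals alone 3 or 4 of the 12 were higher and 3 to 5 lower at each dose.

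The relatives of p53 bind the same response elements. TP63 was low in untreated libraries (0.164, 0.695 and 0.470 CPM) and reached 7.82, 9.08 and 7.51 CPM at 0.5 µM and 7.63, 8.01 and 5.65 CPM at 1 µM. It was called higher from 0.25 µM on, with a log2 fold change of 3.98 (SE 0.39) at 1 µM (edgeR adjusted p = 3.92e-08). At 0.949 CPM per kb its level at 1 µM remained low. TP73 went the other way, from 16.2 ± 1.14 to 7.60 ± 0.887 CPM at 1 µM, and was called lower from 0.25 µM on (log2 fold change -1.09, SE 0.22, at 1 µM). Protein levels were not measured, and no value here shows whether either protein acts on the targets.

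Of the other regulators, MDM4, the partner of MDM2, passed at no dose, with log2 fold changes of 0.41, 0.36, 0.15 and 0.21. PPM1D, a phosphatase that shuts the pathway off and is itself a p53 target, was lower at 0.15 and 0.25 µM (-0.93 and -0.72) and higher at 0.5 µM (0.53), and at 1 µM its value of 0.41 did not pass (adjusted p = 0.0559). USP7, which removes ubiquitin from MDM2 and p53, fell at all doses and by 1.87 at 1 µM. So did the checkpoint kinases CHEK1 (-2.20 at 1 µM) and CHEK2 (-1.11) and the acetyltransferase KAT5 (-0.98). ATM rose from 0.25 µM on (0.72 at 1 µM), while ATR was lower at 0.15 and 0.25 µM (-0.71 and -0.59). The acetyltransferase EP300 was lower at 0.15 µM (-0.50) and did not pass at higher doses. At 0.15 and 0.25 µM the calls of these genes depended on the scaling. By library totals alone 3 and 4 of the 12 pathway genes were lower, in place of 7 at each dose. Those higher then numbered 3 at each, in place of 0 and 2.

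A list of 30 further p53 targets held genes of both directions. The filter on low counts removed FAS and SPATA18. At 0.15 µM 8 of the 28 tested were higher and 6 lower. The split was 11 to 7 with 0.25 µM, 15 to 8 with 0.5 µM and 15 to 7 with 1 µM. At 0.15 µM these shares were near those of all tested genes (31.9% higher and 19.4% lower), and at 1 µM the latter were 38.8% and 27.5%. Their median log2 fold change was 0.19, 0.17, 0.55 and 0.58, against 0.28, 0.32, 0.34 and 0.32 over all genes. By library totals alone the split was 13 to 3 with 0.15 µM and 18 to 4 with 0.25 µM.

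PHLDA3, an inhibitor of AKT, had 0 counts in untreated cells and was at least 18-fold higher at 0.15 µM and at least 118-fold higher at 1 µM, against the same floor of 3 counts per group. CYFIP2, which acts in actin regulation, went from 0.334 ± 0.248 to 50.6 ± 7.55 CPM, a log2 fold change of 7.24 (SE 0.39). PERP, a membrane protein of cell junctions linked to apoptosis, reached 19.7 ± 2.18 CPM at 0.15 µM from 0.507 ± 0.334 CPM in untreated cells and stood at 17.5 ± 1.79 CPM at 1 µM. TP53INP1, a stress protein of autophagy and cell death, rose from 3.44 ± 1.05 to 95.4 ± 6.46 CPM (log2 fold change 4.79, SE 0.25). At the other end, the nuclease AEN fell from 159 ± 7.24 to 10.4 ± 0.885 CPM, a log2 fold change of -3.94 (SE 0.21). TRIAP1, CCNG1 and E2F7 fell by 1.73, 1.31 and 1.26 on the log2 scale. In the edgeR test the adjusted p of these 8 genes at 1 µM was 7.07e-05 or lower.

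**Figure D4:**
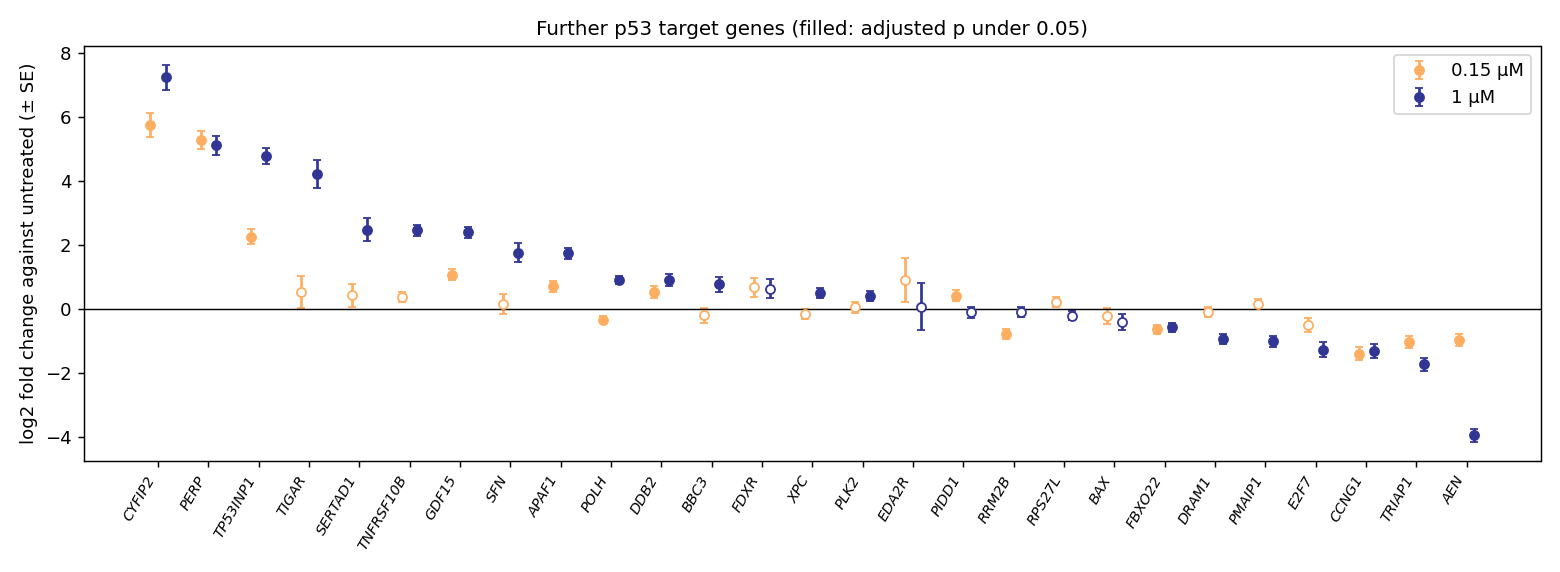
Log2 fold change against untreated cells (vertical axis, ± SE) of the further tested p53 targets at 0.15 and 1 µM martinostat (3 libraries per group), ordered by the value at 1 µM, with filled points where the adjusted p was under 0.05 and without PHLDA3, which had 0 untreated counts. The genes spread from 7.24 (CYFIP2) to -3.94 (AEN) at 1 µM, with TMM scaling.

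p53 lowers many mitotic genes through p21 and the DREAM complex, which represses them in resting cells. At 0.15 µM 8 of 12 such genes were lower, as were 19.4% of all tested genes. At each higher dose 10 of the 12 were lower, as were 24.8%, 27.6% and 27.5% of all tested genes. The median log2 fold change of the 12 was -0.92, -1.23, -1.75 and -1.55. The lowest of them at 1 µM were AURKA (-2.34), PLK1 (-2.18), CCNB1 (-2.10) and CCNB2 (-1.83), all with adjusted p of 2.88e-06 or lower in the edgeR test. CDC20 and CDC25C were the 2 that passed at no dose. CDKN1A rose over the same doses, and the part of p21 in these decreases was not tested.

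The genes whose profile over the 4 doses was most like that of CDKN1A were sought among the 10127 other tested genes whose mean level reached 10 CPM, by the mean absolute difference of the log2 fold changes. DNM3 (0.0961) and PMEL (0.101) were the nearest, followed by CSRP2 (0.145), ACTL6B (0.194) and BAIAP3 (0.202). DNM3 had log2 fold changes of 3.84, 4.98, 6.54 and 6.40 beside 3.98, 5.02, 6.45 and 6.51 for CDKN1A. None of the 5 is among the p53 targets listed here.

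Promoter entries of RefSeq (GRCh38.p14) were present for 9 of the 10 targets, all but GADD45A. Within 250 bases before a start, 7 of the 9 held a GC box, where 46.2% of all genes did, and 6 of the 9 held a CCAAT box (37% of all genes). SESN1, with 3 starts, held up to 7 GC boxes before 1 start, and before another a single 10-base p53 copy, which 6.8% of all genes had. The cAMP response element TGACGTCA (2.03% of all genes) was found in none of the 9 and the E-box only in GADD45B. MDM2, which fell, held both GC and CCAAT boxes, as did BTG2, SESN1, SESN2 and ZMAT3, which rose. Targets differed in their number of starts, and a box before any start was counted. The ZMAT3 window with these boxes and the TP53I3 window lay in annotated exons with all 250 bases. The part of these letters in the direction of change was not tested.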

How the data were processed

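Libraries were made by the authors from poly(A) RNA with a directional kit. Per the labels and methods, FastQC served for quality control, Trim Galore (0.6.10) and Trimmomatic for trimming, HISAT2 (2.2.1) for alignment to hg38, SAMtools (1.21) for sorting, and featureCounts (1.5.3) for counting per GENCODE gene, with a strand setting that was not stated. The deposited table held raw counts per gene, and the deposited tables per library held FPKM computed by the authors. The members and gene lists were chosen with earlier results of these data known.

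Counts of all 15 libraries entered a single fit in edgeR 4.0.16 (R 4.3.3) with group as the only term, filterByExpr, TMM scaling and the robust quasi-likelihood F test, with Benjamini-Hochberg adjustment over 23711 genes at 0.05. The labels call the libraries biological replicates without saying what equal numbers share or how separately they were grown. The p-values thus measure the spread between these libraries only. CPM used the scaled library sizes, and CPM per kb the merged exon length in a later GENCODE release. A floor of 3 counts per group stood in for groups at 0, which covers counting error only. Libraries of a group always differed by more than sampling noise (chi-square over degrees of freedom at least 5.85). Deviations of libraries with equal replicate numbers correlated above 0.1 for all 3 numbers only between 0.25 and 0.5 µM (r = 0.69, 0.70 and 0.87) and not in the other 9 pairs of groups (lowest r -0.42), so this step was also fitted with the number as a block. Named genes were all members, relatives and p53 pathway genes, and in the longer lists the 4 called genes highest and lowest at 1 µM, apart from 1 listed gene that is not reported here. Promoters came from RefSeq. Alternatives were other scalings, filters and fits, DESeq2 1.42.0, and limma 3.58.1 on log2 of FPKM plus 1 or 0.1. The script was tested on simulated data.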

Additional observations from a re-analysis of the deposited data

How the results depend on the processing

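Over 26 alternatives and 1 paired fit of 6 libraries, 619 of 651 counts of called genes stayed within 1.5 times the reported value, and 43 of 52 calls of single p53 targets were lost in none. The MDM2 call carried most of what moved. The count of p53 targets lower at 0.15 µM was 0 in place of 1 with library totals alone, TMM from genes of at least 10 CPM, no filter, at least 10 counts in every library, and limma on log2 of FPKM plus 1 or 0.1, and 0 to 1 when a library was left out. At 0.25 µM it was 0 under the same settings apart from no filter, and the MDM2 log2 fold change reversed to 0.0352 (library totals), 0.0226 (FPKM plus 1) and 0.0339 (FPKM plus 0.1). The cause was not tested. From 0.25 to 0.5 µM, library totals gave 2 higher targets, and the lower count was 0 with only the compared libraries fitted, 2 with FPKM plus 1, and 0 to 1 with a library left out. Without the third replicates at 0.25 and 0.5 µM, chosen after seeing the data, GADD45A added a lower call from 0.15 to 0.25 µM (1) and from 0.15 to 1 µM (2 in all). Among the further p53 targets, library totals gave 13 higher and 3 lower at 0.15 µM and 18 and 4 at 0.25 µM. TMM from genes of at least 10 CPM gave 17 higher at 0.25 µM, as did FPKM plus 0.1. Both limma fits gave 3 lower at 0.15 µM and 4 at 0.25 µM, and FPKM plus 1 gave 5 lower at 0.5 µM. With 0.25 and 0.5 µM paired by replicate block, chosen after seeing the data, 4 targets were higher and 2 lower in that step, TP53I3 being the addition. In that fit 9935 of 21562 tested genes were called. With the replicate block over all groups the counts were again 8 higher and 1 lower at 1 µM, and no call count of the p53 targets moved. Among the p53 targets depth limited GADD45B most, with 17 to 34 counts per untreated library.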

Other observations

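Other factors that are known to switch on some of the p53 targets were followed too. Of 14 such regulators, 5 rose and 5 fell with 0.15 µM, 6 and 4 with 0.25 µM, and 8 and 5 with 0.5 µM as well as 1 µM, where 31.9%, 37.4%, 39.4% and 38.8% of all tested genes were higher and 19.4%, 24.8%, 27.6% and 27.5% lower. ATF3, a stress-induced factor, rose from 5.22 ± 0.332 to 34.3 ± 4.52 CPM at 1 µM (SD, n = 3), a log2 fold change of 2.72 (SE 0.18). KLF4, KLF6 and EGR1, which bind GC-rich promoters, rose by 2.13, 2.09 and 1.90 on the log2 scale at 1 µM. EGR1 was already at 568 ± 28.4 CPM at 0.15 µM, from 162 ± 5.60 CPM in untreated cells. NFKB1 fell from 57.1 ± 3.27 to 7.44 ± 1.27 CPM, a log2 fold change of -2.94 (SE 0.18). ATF4, a known activator of SESN2 in the integrated stress response, fell by 1.32, HIF1A by 1.28 and SP3, which binds GC boxes, by 0.78 on the log2 scale. All adjusted p at 1 µM were 0.00118 or lower in the edgeR quasi-likelihood test. Whether any of these factors acts on the p53 targets was not tested.

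Of 7 long non-coding RNAs linked to p53, 4 were tested. NEAT1, which builds nuclear paraspeckles, had 238 ± 24.6 CPM without treatment and 1951 ± 100.2 CPM with 1 µM, and it was called higher from 0.25 µM on (log2 fold change 3.03, SE 0.43, at 1 µM). TP53TG1 was higher at all 4 doses (1.58 at 1 µM). LINC-PINT was called higher at 0.25 µM, with a mean of 3.46 CPM against 1.23 CPM without treatment. PURPL passed at no dose in the reported fit, with log2 fold changes between -0.05 and 0.67. At 0.25 µM, however, all 4 were called higher by library totals alone and by TMM from genes of at least 10 CPM. Of all tested genes 31.9%, 37.4%, 39.4% and 38.8% were higher in order of rising dose. PANDAR and MIR34AHG did not pass the filter on low counts, and TP53COR1 was not matched.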
